A study of Saccharomyces cerevisiae with 14 samples.

Results

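Of 395 sites in yeast polyA RNA whose cleavage by MazF could be followed through meiosis, 73 were cut less in the middle of the time course than before and after it. MazF is an endonuclease of bacterial origin that cleaves RNA at ACA motifs, and it does not cut where the first A of the motif carries a methyl group. Each site was measured by its cleavage efficiency, the cut share of its RNA, which ran between 0.00442 and 1 in the table. A site was taken as dipping when its mean at 3.5, 4 and 5 h lay at least 0.04 under its mean at 1 and 2 h and at least 0.04 under its mean at 7 and 8 h. The sites were thus chosen by their cleavage efficiencies at those 7 hours, so the dip itself is described here and was not tested. The rule could be applied to the 395 sites, in 367 genes, that had a value in all 7 of these libraries, out of 1184 sites in 1010 genes. The 73 dipping sites lay in 73 different genes. They made up 18.5% of the 395 sites, and the other 322 sites serve as their comparison.

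The cells were diploid Saccharomyces cerevisiae of the SK1 strain, a laboratory strain that enters meiosis rapidly. Every library of the time course came from the same genotype, MAT a/alpha with lys2/lys2, ho::LYS2/ho::LYS2 and ndt80::LEU2/ndt80::LEU2, and from polyA RNA of cells grown in YPD at 30 °C before meiosis was induced. NDT80 encodes the transcription factor needed to leave pachytene, so cells that lack it stop in prophase of the first meiotic division and cannot serve as a model of later stages. There was 1 library at each of 0, 1, 2, 3, 3.5, 4, 5, 6, 7 and 8 h, none of them replicated, and whether 1 culture gave them all is not stated in the labels. The 4 control samples at 8 h, 2 with a deletion of ime4 and 2 of wild type, were not analysed here. Sites with a value numbered 299 at 0 h, 613 and 988 at 1 and 2 h, 891 at 3 h, 1171, 1132 and 1052 at 3.5, 4 and 5 h, 1054 at 6 h, and 740 and 626 at 7 and 8 h. How many reads lie behind a value is not known, and no counting interval is therefore printed.

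In yeast the methyl group on the N6 position of adenosine in mRNA, m6A, is laid down in meiosis by a complex around the methyltransferase Ime4, and it is found mainly toward the 3' end of transcripts. A site that becomes methylated is cut less by MazF. The reading cannot by itself tell methylation from other differences between libraries, and that part was not tested here. Each site carries its gene's name and the table's position in that gene. Coordinates on chromosomes are printed as deposited, on a build that the sources used here do not name, and gene names come from the R64 reference, in which 72 of the 73 genes were found. The site of snR86, a small nucleolar RNA gene, was the exception.

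The dip was moderate at most sites and deep at a few. Over the 73 dipping sites the median cleavage efficiency was 0.864 and 0.853 at 1 and 2 h, 0.787 at 3 h (71 sites), 0.715, 0.722 and 0.708 at 3.5, 4 and 5 h, 0.742 at 6 h (72 sites), and 0.776 and 0.861 at 7 and 8 h. Over the other 322 sites the median lay between 0.862 and 0.909 from 1 to 8 h, lowest at 6 h. The early mean exceeded the middle mean by a median of 0.118 at the dipping sites, with a range of 0.0432 to 0.398. The late mean exceeded the middle mean by a median of 0.0900, with a range of 0.0413 to 0.380. The lowest value of the course stood at 5 h in 27 of the 73 sites, at 3.5 and 4 h in 15 and 11, and at 6 h in 9, although 6 h was not part of the rule. The other 11 sites had their lowest value at another hour, among them 4 at 3 h and 4 at 7 h.

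**Figure D1:**
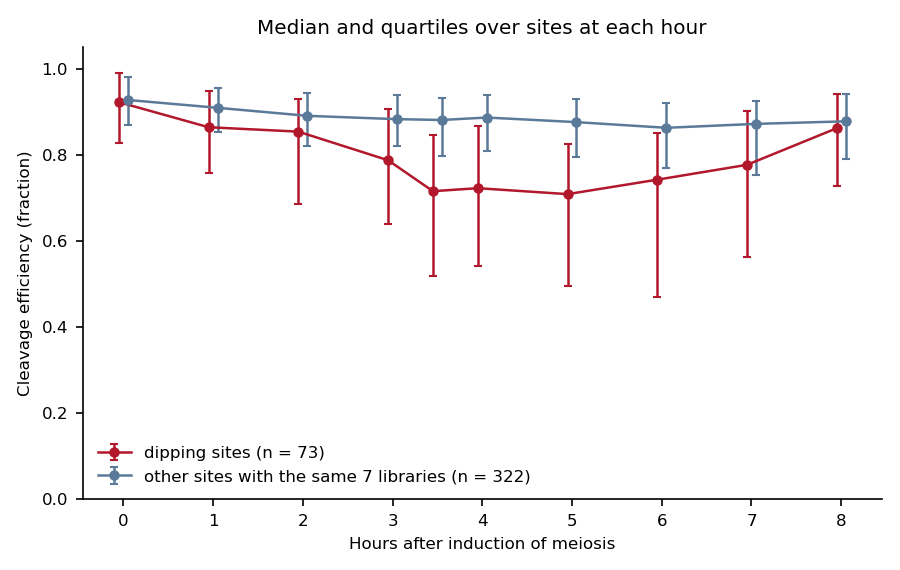
Median cleavage efficiency (fraction, y axis) against hours after induction of meiosis (x axis) for the 73 dipping sites and for the other 322 sites with a value in all 7 libraries of the rule; points are medians and bars span the lower to the upper quartile over sites, and 0, 3 and 6 h rest on the sites with a value there. The dipping sites have a median of 0.708 at 5 h and 0.861 at 8 h, while the other sites stay between 0.862 and 0.909 from 1 to 8 h.

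The late mean reached or passed the early mean at 24 of the 73 sites and stayed under it at 49. The median late minus early difference was -0.0243 at the dipping sites and -0.0228 at the other 322 sites, so a late shortfall of this size was found in both. As a share of the early loss, the median return was 81.0%. At 17 sites it was under 50%, and the lowest was 16.2%. At some sites the 7 h value lay under the middle mean, so their late mean rests on the 8 h library. These were YLR345W, MTH1, PIK1, HUL5, BUL1, NCE103, NRE1, CCT3, MDM36, VAC7, RIM11, STH1, ATG26, FKS1, POX1, INO1 and RPM2. At SCS7, YDR109C and TBS1 the 8 h value lay under the middle mean instead. In the early window the 2 h value lay under the middle mean at MES1, TIM17, YTA7 and FCY1, and the 1 h value at CCT3. The early means of these sites thus rest on the other early library. At FCY1 the 2 h value, 0.346, was the lowest of its course. At the 30 dipping sites with a value at 0 h the late mean lay under the 0 h value in 24, with a median late minus 0 h difference of -0.0855 over the 30. The same held at 145 of the 185 other sites with a value at 0 h, where the median difference was -0.0552. Measured from 0 h, most sites of both kinds therefore ended lower.

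The opposite pattern was rarer in the same table. A middle mean at least 0.04 above both the early and the late mean was found at 11 of the 395 sites, or 2.78%. At a size of 0.06 there were 50 dipping sites and 7 of the opposite kind, and at 0.1 there were 22 and 1. Without means, 32 sites had every value at 3.5, 4 and 5 h under every value at 1, 2, 7 and 8 h, which is 8.1% of the 395, and 26 of these 32 were among the 73. Only 5 sites, 1.27%, had every middle value above every early and late value. These counts describe the table and were not tested, since the libraries of one hour have no replicate and all sites share the same 7 libraries. Over all 395 sites the early minus middle difference had a median of 0.0303 and the late minus middle difference a median of 0.00943. Over the other 322 sites, which leave out those chosen to dip, these medians were 0.01995 and -0.000435. The early libraries thus lay above the middle ones in both sets, while a higher late level was not seen over those 322. The part of library levels in these counts was not tested. Shifting the libraries to 1 median left 53 dips, and the opposite pattern was not recounted after that shift.

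The size asked for is small beside the scatter. The pooled SD within the early, middle and late windows had a median of 0.0709 at the dipping sites and 0.0444 at the other sites, both above the threshold of 0.04. The smaller of both differences had a median of 0.0763 at the dipping sites, close to their median SD. The 3 sites just inside the rule were TBS1, a zinc cluster protein, with a smaller difference of 0.0413, CAB3, a coenzyme A synthesis protein, with 0.0415, and CDC3, a septin, with 0.0424. Sites just outside it included YAP5 (position 1034), a transcription factor of the iron response, with 0.0382, and PUP2 (position 636), a proteasome subunit, with 0.0377. Nothing in these values separates the inner from the outer sites.

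**Figure D2:**
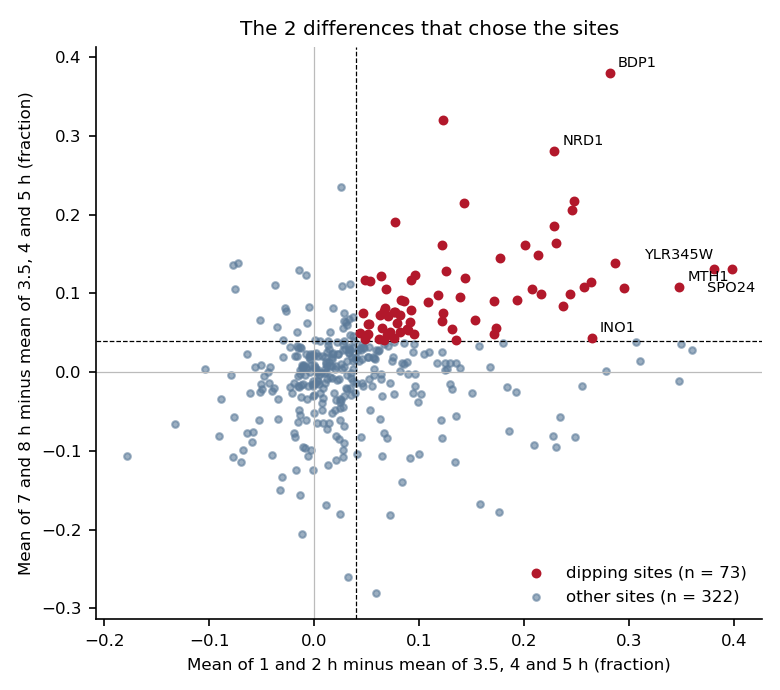
Early mean minus middle mean (x axis) against late mean minus middle mean (y axis), both as fractions, for the 395 sites; dashed lines mark the threshold of 0.04 in each direction. The 73 dipping sites fill the upper right corner, where BDP1 has a late minus middle difference of 0.380 and SPO24 an early minus middle difference of 0.398.

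The 12 deepest dips, ranked by the smaller of both differences, are given in every library. The deepest was in BDP1 (position 1939; chromosome 14, 568342, + strand), which encodes a subunit of TFIIIB, the initiation factor of RNA polymerase III. Its cleavage efficiency was 0.821 and 0.573 at 1 and 2 h, 0.390 at 3 h, 0.435, 0.383 and 0.428 at 3.5, 4 and 5 h, 0.320 at 6 h, and 0.720 and 0.872 at 7 and 8 h, with no value at 0 h. All values from 3 to 6 h lay under those at 1, 2, 7 and 8 h. The second was in NRD1 (position 1981; chromosome 14, 190555, - strand), an RNA-binding protein that ends transcription of short non-coding RNAs. It had 0.669 and 0.700 at 1 and 2 h, 0.947 at 3 h, 0.533, 0.486 and 0.350 at 3.5, 4 and 5 h, 0.392 at 6 h, and 0.526 and 0.949 at 7 and 8 h. The 3 h value was close to the 8 h value and the highest up to that time, so 3 h stood outside the dip, while the 7 h value was within the range of the middle hours.

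The courses of TFA1 and SYG1 were alike in shape. TFA1 (position 1580), the large subunit of the basal transcription factor TFIIE, had 0.856 and 0.770 at 1 and 2 h, 0.653 at 3 h, 0.590, 0.606 and 0.558 at 3.5, 4 and 5 h, 0.652 at 6 h, and 0.776 and 0.763 at 7 and 8 h. SYG1 (position 772), a plasma membrane protein of the phosphate exporter family, had 0.748 and 0.702 at 1 and 2 h, 0.616 at 3 h, 0.453, 0.572 and 0.406 at 3.5, 4 and 5 h, 0.483 at 6 h, and 0.720 and 0.669 at 7 and 8 h. At both sites the 5 h library was lowest and every value from 3 to 6 h was under the values at 1, 2, 7 and 8 h. At 7 h BDP1, SYG1 and ALG14 carried the same value, 0.7195, to all digits given. A value shared in this way with another site of the same library was common.

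The early secretory pathway gave 3 of the 12, and how many of all the sites followed lie in its genes was not counted. YPF1 (position 1976), an intramembrane protease of the endoplasmic reticulum, had 0.708 and 0.676 at 1 and 2 h, 0.600 at 3 h, 0.415, 0.488 and 0.437 at 3.5, 4 and 5 h, 0.468 at 6 h, and 0.712 and 0.593 at 7 and 8 h. ERP6 (position 554), of the p24 family of vesicle coat cargo proteins, had 1.00 and 0.844 at 1 and 2 h, 0.778 at 3 h, 0.635, 0.744 and 0.696 at 3.5, 4 and 5 h, 0.921 at 6 h, and 0.881 and 0.829 at 7 and 8 h. BET3 (position 735), a core subunit of the TRAPP vesicle tethering complex, had 1.00 at 0 h, 0.867 and 0.809 at 1 and 2 h, 0.816 at 3 h, 0.644, 0.628 and 0.601 at 3.5, 4 and 5 h, 0.720 at 6 h, and 0.826 and 0.722 at 7 and 8 h. At ERP6 the 6 h value was back above the 2 h value, whereas at BET3 it still lay under all early and late ones, though only just under that at 8 h. The BET3 value at 0 h was exactly 1, above every later hour.

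TCB3 (position 4343), a tricalbin that tethers the endoplasmic reticulum to the plasma membrane, had 1.00 and 0.869 at 1 and 2 h, 0.833 at 3 h, 0.726, 0.678 and 0.539 at 3.5, 4 and 5 h, 0.595 at 6 h, and 0.736 and 0.836 at 7 and 8 h. Its values were lower at each hour up to 5 h and higher at each hour after it. GUK1 (position 729), the guanylate kinase that makes GDP, had 0.799 at 0 h, 0.859 and 0.646 at 1 and 2 h, 0.631 at 3 h, 0.538, 0.589 and 0.527 at 3.5, 4 and 5 h, 0.491 at 6 h, and 0.685 and 0.739 at 7 and 8 h. Here the lowest value was at 6 h, and the 2 h and 3 h values already lay under those of 7 and 8 h.

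The remaining 3 of the 12 differ in level. ECM32 (position 3044), a helicase that binds translation termination factors, was the most weakly cut of the 12, with 0.577 at 0 h, 0.415 and 0.263 at 1 and 2 h, 0.245 at 3 h, 0.190, 0.119 and 0.177 at 3.5, 4 and 5 h, 0.267 at 6 h, and 0.344 and 0.269 at 7 and 8 h. YLR345W (position 1508), a protein similar to 6-phosphofructo-2-kinase, had 0.921 and 0.654 at 1 and 2 h, 0.746 at 3 h, 0.325, 0.497 and 0.396 at 3.5, 4 and 5 h, 0.428 at 6 h, and 0.388 and 0.687 at 7 and 8 h. YJR115W (position 669), a protein without a characterised role, had 0.857 at 0 h, 0.830 and 0.713 at 1 and 2 h, 0.760 at 3 h, 0.669, 0.678 and 0.540 at 3.5, 4 and 5 h, 0.594 at 6 h, and 0.788 and 0.899 at 7 and 8 h. The YLR345W site stayed low through 7 h, so its late mean rests on the 8 h library, while YJR115W ended at 8 h above its value at 0 h.

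**Figure D3:**
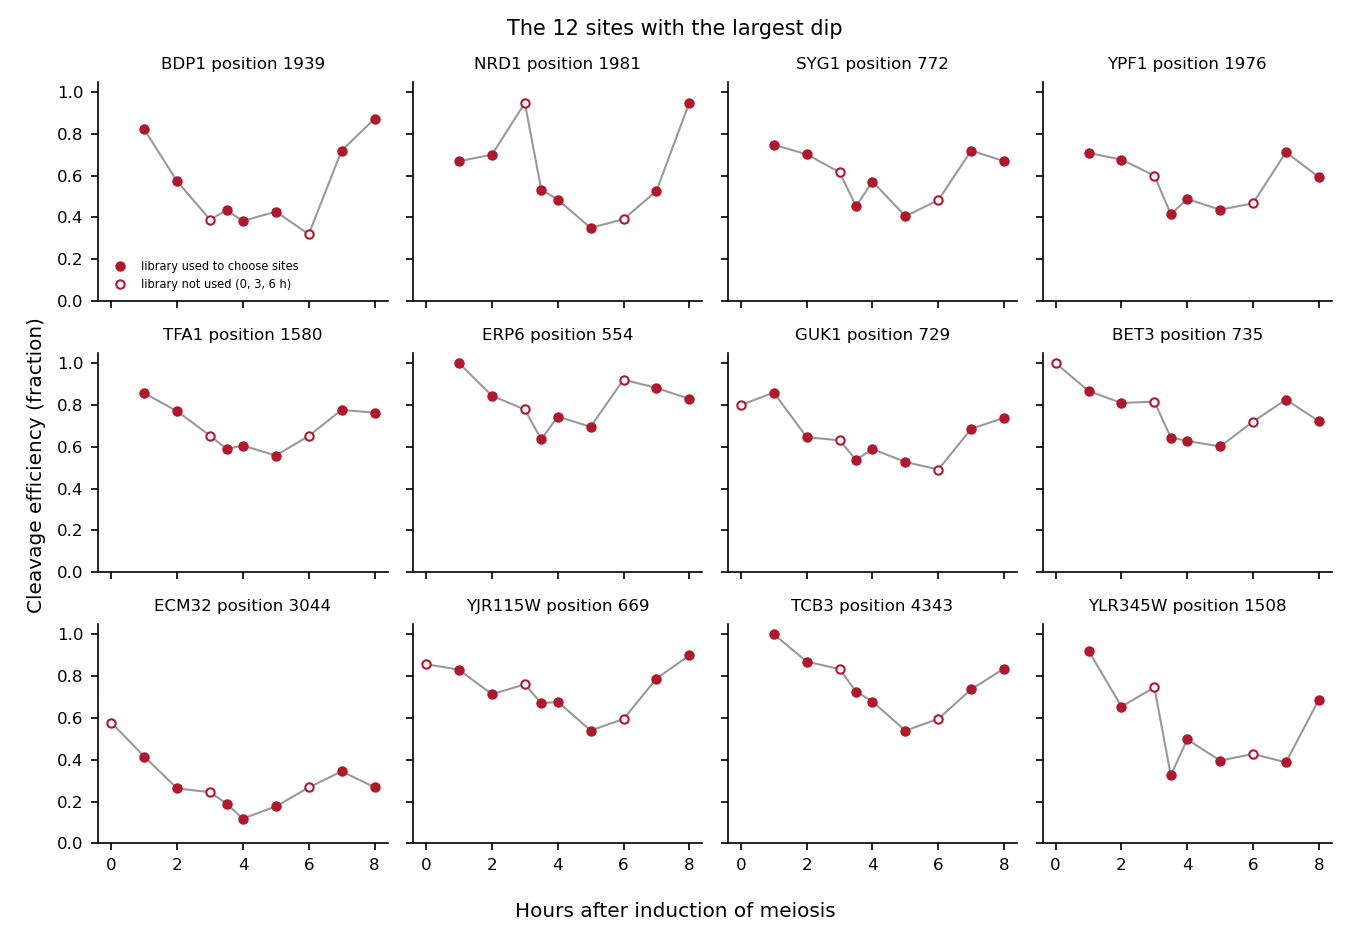
Cleavage efficiency (fraction, y axis) against hours after induction of meiosis (x axis) at the 12 deepest dipping sites, 1 panel per site and 1 point per library; filled points are the 7 libraries that chose the sites and open points those at 0, 3 and 6 h. BDP1 reaches 0.320 at 6 h and 0.872 at 8 h, and ECM32 stays at or under 0.577 throughout.

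By role, the 73 genes spread widely, and the grouping below was made after the members were known. Roles were given to the dipping genes only, so no group can be set against its share of all sites followed. The group medians come from the values that chose the sites, and differences between groups were not tested. The 7 genes of transcription and chromatin had smaller differences from 0.0413 to 0.282. Besides BDP1, NRD1 and TFA1 they were YTA7, a chromatin-bound AAA ATPase, SNF12 and STH1, subunits of the SWI/SNF and RSC remodelling complexes, and TBS1. STH1 (position 2951) had early, middle and late means of 0.907, 0.775 and 0.830, and SNF12 (position 647) had 1.00, 0.878 and 0.943. At SNF12 the values at 1, 2, 4 and 8 h were all exactly 1, so its dip rests on 3.5 and 5 h.

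The 9 genes of RNA export, translation and RNA processing had smaller differences from 0.0427 to 0.145. They were NUP159 and NSP1, nucleoporins, YRA1, an mRNA export adaptor, RPM2, a protein subunit of mitochondrial RNase P, MKT1, MES1, the methionyl-tRNA synthetase, ECM32, RKM1, a methyltransferase of ribosomal proteins, and snR86. MES1 (position 1609) was weakly cut, with 0.361 and 0.0958 at 1 and 2 h, 0.242 at 3 h, 0.181, 0.0923 and 0.181 at 3.5, 4 and 5 h, 0.205 at 6 h, and 0.327 and 0.359 at 7 and 8 h. Its 2 h value of 0.0958 lay as low as the middle hours, so the early mean rests on 1 h. The snR86 site (position 996) had the second largest late difference after BDP1, with 0.820 at 0 h, 0.746 and 0.536 at 1 and 2 h, 0.426 at 3 h, 0.569, 0.572 and 0.415 at 3.5, 4 and 5 h, 0.610 at 6 h, and 0.810 and 0.868 at 7 and 8 h. NSP1 (position 1722) had early, middle and late means of 0.128, 0.0798 and 0.197, the lowest early mean of the 73 sites.

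The 7 genes of the secretory pathway and protein glycosylation had the highest median dip of the 12 role groups, 0.120, with a range of 0.0516 to 0.206. ALG14 (position 820), which anchors the second glycosyltransferase step of N-glycan assembly, had 0.783 and 0.730 at 1 and 2 h, 0.733 at 3 h, 0.610, 0.642 and 0.585 at 3.5, 4 and 5 h, 0.619 at 6 h, and 0.720 and 0.744 at 7 and 8 h. GPI16, a subunit of the GPI transamidase, ERV25, a p24 cargo protein, and EMP47, a lectin-like cargo receptor, had shallower dips of 0.0545, 0.0516 and 0.0763. EMP47 read exactly 1 in 6 of the 7 libraries of the rule and 0.771 at 5 h, so that 1 library alone placed it among the 73.

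Among the 8 genes of membrane lipids, tethers, vacuole and autophagy, INO1 (position 1805), inositol-3-phosphate synthase, had the lowest return of the 73 sites, 16.2%. Its values were 0.999 at 0 h, 0.780 and 0.614 at 1 and 2 h, 0.559 at 3 h, 0.406, 0.463 and 0.429 at 3.5, 4 and 5 h, 0.417 at 6 h, and 0.427 and 0.524 at 7 and 8 h. PIK1 (position 3161), a phosphatidylinositol 4-kinase, had early, middle and late means of 0.785, 0.528 and 0.636, and VAC7 (position 3112), a regulator of phosphatidylinositol 3,5-bisphosphate, had 0.674, 0.520 and 0.587. Their 7 h values, 0.504 and 0.473, were still under these middle means. ATG21 and ATG26, both named for autophagy, and SCS7, a sphingolipid hydroxylase, had smaller differences of 0.0758, 0.0483 and 0.0628. The 3 genes of cell wall and septin, FKS1, the glucan synthase, CWP1, a wall mannoprotein, and CDC3, had the lowest median of all groups, 0.0488.

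The 9 genes of mitochondria and peroxisome had a median dip of 0.0925. MDM36 (position 695), which acts in mitochondrial distribution, had 1.00 at 0 h, 0.663 and 0.820 at 1 and 2 h, 0.787 at 3 h, 0.500, 0.614 and 0.745 at 3.5, 4 and 5 h, 0.840 at 6 h, and 0.562 and 1.00 at 7 and 8 h. RIM1 (position 567), the mitochondrial single-stranded DNA-binding protein, had 0.823 at 0 h, 0.599 and 0.554 at 1 and 2 h, 0.434 at 3 h, 0.323, 0.431 and 0.264 at 3.5, 4 and 5 h, 0.274 at 6 h, and 0.351 and 0.496 at 7 and 8 h. HEM1 (position 1698), 5-aminolevulinate synthase of haem synthesis, had 0.846 at 0 h, 0.573 and 0.475 at 1 and 2 h, 0.538 at 3 h, 0.331, 0.375 and 0.449 at 3.5, 4 and 5 h, 0.469 at 6 h, and 0.483 and 0.478 at 7 and 8 h. All values of RIM1 and HEM1 after 0 h were under the 0 h value. The others were MRX3, TIM17 of the inner membrane translocase, ATP5 of the ATP synthase, MFB1, a mitochondrial F-box protein, PEX2 of peroxisome import and POX1, the first enzyme of fatty acid beta-oxidation, with smaller differences from 0.0479 to 0.106.

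A further 4 genes covered sporulation, kinases, phosphatase and glucose signalling. SPO24 (position 394), a small protein of sporulation, had 0.985 at 0 h, 0.743 and 0.551 at 1 and 2 h, 0.313 at 3 h, 0.257, 0.261 and 0.230 at 3.5, 4 and 5 h, 0.287 at 6 h, and 0.347 and 0.413 at 7 and 8 h. The lowest value was at 5 h, and the 8 h value was still under that at 2 h. MTH1 (position 1522), a repressor of hexose transporter genes, had 0.624 and 0.562 at 1 and 2 h, 0.449 at 3 h, 0.380, 0.244 and 0.113 at 3.5, 4 and 5 h, 0.303 at 6 h, and 0.245 and 0.463 at 7 and 8 h. RIM11 (position 641), the kinase that phosphorylates the regulators Ume6 and Ime1 at entry into meiosis, had 1.00 and 1.00 at 1 and 2 h, 0.938 at 3 h, 0.891, 0.864 and 0.727 at 3.5, 4 and 5 h, 0.746 at 6 h, and 0.766 and 1.00 at 7 and 8 h. Its values at 1, 2 and 8 h were exactly 1. RTS1, a regulatory subunit of protein phosphatase 2A, had early, middle and late means of 0.909, 0.845 and 0.967, and the table lists this site also under YOR015W.

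The ubiquitin pathway held 4 genes. HUL5, a ubiquitin ligase that elongates chains at the proteasome, had means of 0.877, 0.582 and 0.689 in the early, middle and late windows. BUL1 (position 2938) and ECM21, adaptors of the ligase Rsp5, had means of 0.307, 0.0639 and 0.164 and of 0.846, 0.760 and 0.850. UBP2, a ubiquitin protease, had the shallowest dip of the group, 0.0529. At BUL1 the 7 h value was 0.0273, the lowest of its course, and the late mean rests on the 8 h value of 0.300.

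DNA repair gave RAD57, which acts in recombinational repair, with early, middle and late means of 0.913, 0.788 and 0.916, and RAD26, of transcription-coupled repair, with 0.897, 0.828 and 0.898. At RAD26 the values at 3.5 and 4 h, 0.896 and 0.885, lay above those at 1 and 8 h. Its dip thus rests on the 5 h value of 0.702. Chaperone and redox genes were CCT3, a subunit of the cytosolic chaperonin, AHA1, a co-chaperone of Hsp90, HSP31 and GRX6, with smaller differences from 0.0513 to 0.0826. The HSP31 value at 5 h, 0.897, lay above both of its early values. The 11 metabolic enzymes had a median of 0.0660. Besides GUK1 and YLR345W, APE2 (position 3310), an aminopeptidase, had means of 0.901, 0.638 and 0.753, and YMR099C, glucose-6-phosphate 1-epimerase, had 0.943, 0.750 and 0.841. PGK1 (position 1088), phosphoglycerate kinase of glycolysis, was weakly cut at every hour, with means of 0.182, 0.112 and 0.159. NCE103 (carbonic anhydrase), MET10 (a sulfite reductase subunit), TRP2 (anthranilate synthase), TYR1, FCY1 (cytosine deaminase) and CAB3 make up the rest. The CAB3 value at 4 h, 0.966, was the highest of its course. The last 5 genes, YJR115W, NRE1, YPL229W, YLR225C and YDR109C, were left without a role, with smaller differences from 0.0560 to 0.143.

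Lists of genes by process gave few of the dipping sites. Of 21 lists, 17 held a site with all 7 values, and these held 115 such sites, of which 11 dipped (9.57%, against 18.5% of all 395). Regulators of meiotic entry had RIM11 among 2 sites. Cell wall and glycosylation had FKS1 and CWP1 among 13, lipid, inositol and sterol synthesis INO1 among 17, respiration ATP5 among 9, glycolysis PGK1 among 7, heat shock and stress HSP31 among 6, and glucose signalling MTH1 among 6. RNA polymerase factors had BDP1, and histones and chromatin STH1, each among 3. Membrane trafficking had the TCB3 site at position 4343 among 3, and all 3 of those sites lie in TCB3 itself. No site dipped among the 10 of early meiotic recombination and synapsis, the 13 of acetate use or the 13 of proteasome and protein degradation. Nor did any among the 4 of autophagy and vacuole, or the 2 each of methylation machinery, replication with repair and cohesion, and translation factors. The lists are incomplete, and ATG21, ATG26, HUL5, BUL1, ECM21, UBP2, RAD57 and RAD26 dipped but were in none. A list without a dipping site therefore does not speak for its whole process. The lists for targets of NDT80, ribosome biogenesis, mitotic growth and haploid cells had no site with all 7 values. Markers of cells outside meiosis could therefore not be followed through all 7 hours. Mitotic growth had 3 sites in the table and haploid cells 1, each without a value at some of these hours. The other 62 dipping sites were in no list. These shares were not tested.

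The libraries at 0, 3 and 6 h were not used to choose the sites, but setting 3 and 6 h against the other hours still draws on values that were. At 6 h, 61 of 72 dipping sites (84.7%) were under both their early and late mean, against 156 of 320 other sites (48.8%). The 6 h value was under each of the values at 1, 2, 7 and 8 h at 41 of the 72 dipping sites and at 101 of the 320 others. At 3 h, 37 of 71 dipping sites (52.1%) were under both means, against 80 of 317 other sites (25.2%). The early and late means of the dipping sites were chosen to be high and their middle mean to be low, which favours such counts, so these are descriptions without a test. The median of the 6 h value minus the middle mean was 0.0166 at the dipping sites and -0.0131 at the others. For 3 h it was 0.0834 at the dipping sites and 0.0140 at the others. The 6 h value was nearer to the middle than to the late mean at 50 of 72 dipping sites and at 193 of 320 others.

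The comparison with 0 h sets only libraries outside the rule against each other, and the rest enter through the scatter. It was made at the 260 sites with values at 0, 3 and 6 h and in at least 8 libraries, of which 30 were dipping sites. It asked whether the mean of 3 and 6 h differed from 0 h, in a limma fit in which the scatter within the windows 1 and 2 h, 3.5, 4 and 5 h, and 7 and 8 h stands for the error. Over all 260 sites 11 passed at an adjusted p under 0.05 (4.23%), 10 of them lower at 3 and 6 h (3.85%) and 1 higher (0.385%). An unadjusted p under 0.05 was reached at 15 of the 30 dipping sites and at 55 of all 260 (21.2%). Of the 30 dipping sites 4 passed as lower and 1 as higher, and of the 230 other sites 6 passed as lower and 0 as higher. The median difference was -0.174 over the 30 dipping sites, with a median standard error of 0.0774, and -0.0476 over the 230 others. It was negative at 27 of the 30 (90.0%) and at 182 of the 230 (79.1%). Of these 230 others, 184 had all 7 values of the rule, with a median difference of -0.0460. The rest lacked a value at some of these hours and could not be classed by the rule. With 1 library per hour these p-values measure the scatter between neighbouring hours and not that between cultures.

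SPO24 had the largest fall of the 30 dipping sites, by 0.685 ± 0.0877 (SE), to 0.313 at 3 h and 0.287 at 6 h against 0.985 at 0 h (limma, adjusted p = 0.0131). INO1 fell by 0.511 ± 0.0961, to 0.559 at 3 h and 0.417 at 6 h against 0.999 at 0 h (limma, adjusted p = 0.0361). RIM1 fell by 0.469 ± 0.0943, to 0.434 at 3 h and 0.274 at 6 h against 0.823 at 0 h (limma, adjusted p = 0.0404). These 3 sites had both libraries far under 0 h, and each 3 h value lay between the 0 h and the 6 h value. ECM32 fell by 0.321 ± 0.0688, to 0.245 at 3 h and 0.267 at 6 h against 0.577 at 0 h (limma, adjusted p = 0.0463). NSP1 went the other way, higher by 0.141 ± 0.0245, with 0.221 at 3 h and 0.235 at 6 h against 0.0870 at 0 h (limma, adjusted p = 0.0257). At NSP1 both libraries lay above every middle value, so neither 3 h nor 6 h shared its dip.

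These calls depend on single libraries and on settings of the fit. Without the 6 h library 0 of 262 sites passed and 30 had an unadjusted p under 0.05 (limma), and SPO24 had an adjusted p of 0.0728 (limma). SPO24 passed in 14 of 16 alternative fits (adjusted p from 0.000778 to 0.424), INO1 in 10, RIM1 and NSP1 in 7 each, and ECM32 in 2. INO1, RIM1, NSP1 and ECM32 also missed the threshold without the 3.5 h, the 4 h or the 5 h library, with adjusted p from 0.0614 to 0.123 (limma). RIM1 missed it without 1 h or 2 h as well, and ECM32 without 3, 7 or 8 h. NSP1, which had low values throughout, and ECM32 also missed it on the logit scale and without a trend in the prior variance. Both missed it with a mean of at least 0.1 too, as did RIM1. None of these fits called any site higher. HEM1, with a difference of -0.343 ± 0.0831, did not pass (limma, adjusted p = 0.0731), nor did NCE103 with -0.393 ± 0.110 (limma, adjusted p = 0.103). HEM1 passed in 2 of the 16 alternative fits, as many as ECM32, and NCE103 in 3, with adjusted p from 0.0164 to 0.424 (limma).

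**Figure D4:**
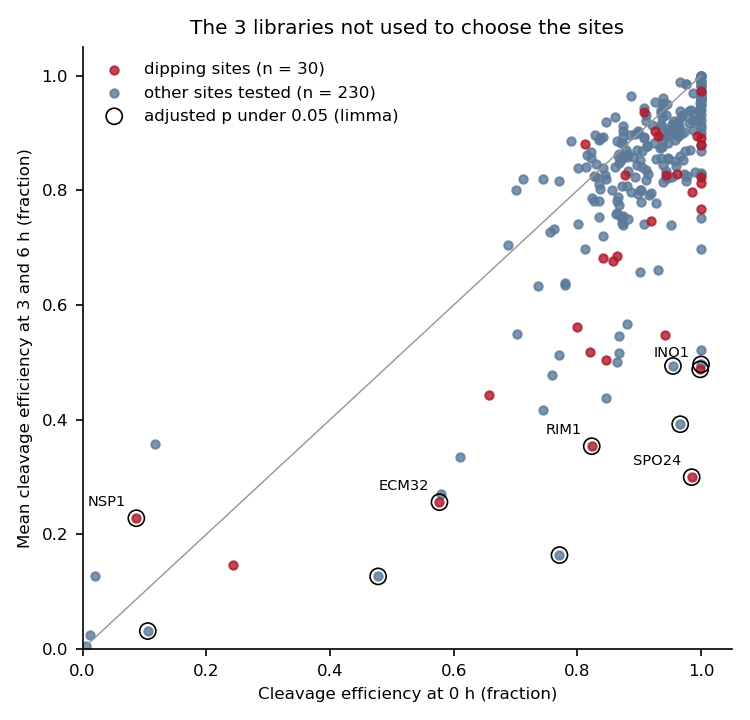
Mean cleavage efficiency at 3 and 6 h (y axis) against that at 0 h (x axis), both as fractions, for the 30 dipping sites and the 230 other sites with all 3 values and at least 8 libraries; the line marks equal values, and rings mark sites with an adjusted p under 0.05 in the limma fit. SPO24, INO1, RIM1 and ECM32 lie under the line and NSP1 above it.

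From 3 to 6 h no site passed. Of 584 sites tested 0 differed between 6 h and 3 h at an adjusted p under 0.05 (limma, 0.0%), and 55 had an unadjusted p under 0.05 (9.42%). Of the 71 dipping sites tested, 0 passed and 4 had an unadjusted p under 0.05. All 4 were lower at 6 h, as were 49 of the 55 over all sites tested, so this direction was not particular to dipping sites. Among the 4, TRP2, of tryptophan synthesis, had the smallest unadjusted p. It had 0.632 at 6 h and 1.00 at 3 h, a difference of -0.368 ± 0.0681 (limma, adjusted p = 0.401). The others were MRX3, a mitochondrial protein, TYR1, prephenate dehydrogenase of tyrosine synthesis, and NRD1. The difference was negative at 53 of 71 dipping sites (74.6%) and 338 of 513 other sites (65.9%), with medians of -0.0488 and -0.0359.

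At 0 h the median was 0.922 over 30 dipping sites and 0.927 over 185 other sites. By their early mean, dipping sites made up 7 of the 14 sites with an early mean under 0.5, 21 of the 60 from 0.5 to 0.8 (35.0%), 15 of the 138 from 0.8 to 0.9 (10.9%) and 30 of the 183 at or above 0.9 (16.4%). The early mean entered the rule, so this is a description. A value at 0 h was given for 30 of the 73 dipping sites (41.1%) and 185 of the 322 others (57.5%). The position in the table divided by the R64 length of the gene had a median of 0.952 at 72 dipping sites and 0.890 at 315 others, and the table's origin of counting is not given. It was past the gene's length at 30 of the 72 and 111 of the 315. The sites fell on 15 chromosomes, with 42 of 73 on the plus strand.

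Other sites of the same genes give a comparison within a transcript. Of the 73 genes 21 had another site, 27 in all, and 7 of those sites, in 6 genes, had all 7 values. At 3 of the 7 the middle mean was under both other means, and none passed the rule. The rule could not be applied to the other sites, which lacked a value at some of its hours. Some of these were also low in the middle. MFB1 at position 1072, without 1 h, had early minus middle and late minus middle differences of 0.174 and 0.114. TCB3 at position 4615, without 1, 5 and 8 h, had 0.145 and 0.145. Others went the other way, and MRX3 at 786, MES1 at 2312 and SNF12 at 1295 had 2 h values under their middle mean. In NCE103 the dipping site at position 864 and a second site at 870 lie 6 bases apart. At 864 the values were 0.941 at 0 h, 0.757 and 0.710 at 1 and 2 h, 0.649 at 3 h, 0.518, 0.529 and 0.505 at 3.5, 4 and 5 h, 0.448 at 6 h, and 0.488 and 0.744 at 7 and 8 h. At 870 they were 0.984 at 0 h, 0.939 and 0.900 at 1 and 2 h, 0.965 at 3 h, 0.891, 0.901 and 0.946 at 3.5, 4 and 5 h, 0.914 at 6 h, and 0.913 and 0.909 at 7 and 8 h. The second site stayed at or above 0.891 while the first was under 0.55 from 3.5 to 7 h. The mean of 3 and 6 h differed from 0 h by -0.393 ± 0.110 at 864 (limma, adjusted p = 0.103) and by -0.0438 ± 0.0324 at 870 (limma, adjusted p = 0.465), and the difference between the sites was not tested.

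In APE2 the dipping site at position 3310 had a middle mean of 0.638, while the site at 1582 had 0.957. In TCB3 the site at 4343 had a middle mean of 0.648, against 0.813 at position 2234 and 0.913 at position 4732. In YLR345W the site at 1508 had 0.406 and that at 1757 had 0.731, with early means of 0.788 and 0.815. In GRX6, a monothiol glutaredoxin, the sites at 296 and 645 had middle means of 0.924 and 0.972. In ATG26, a sterol glucosyltransferase, the site at 3457 had a middle mean of 0.755 and the site at 2766 had 0.878, and the second missed the rule with an early minus middle difference of 0.0370.

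**Figure D5:**
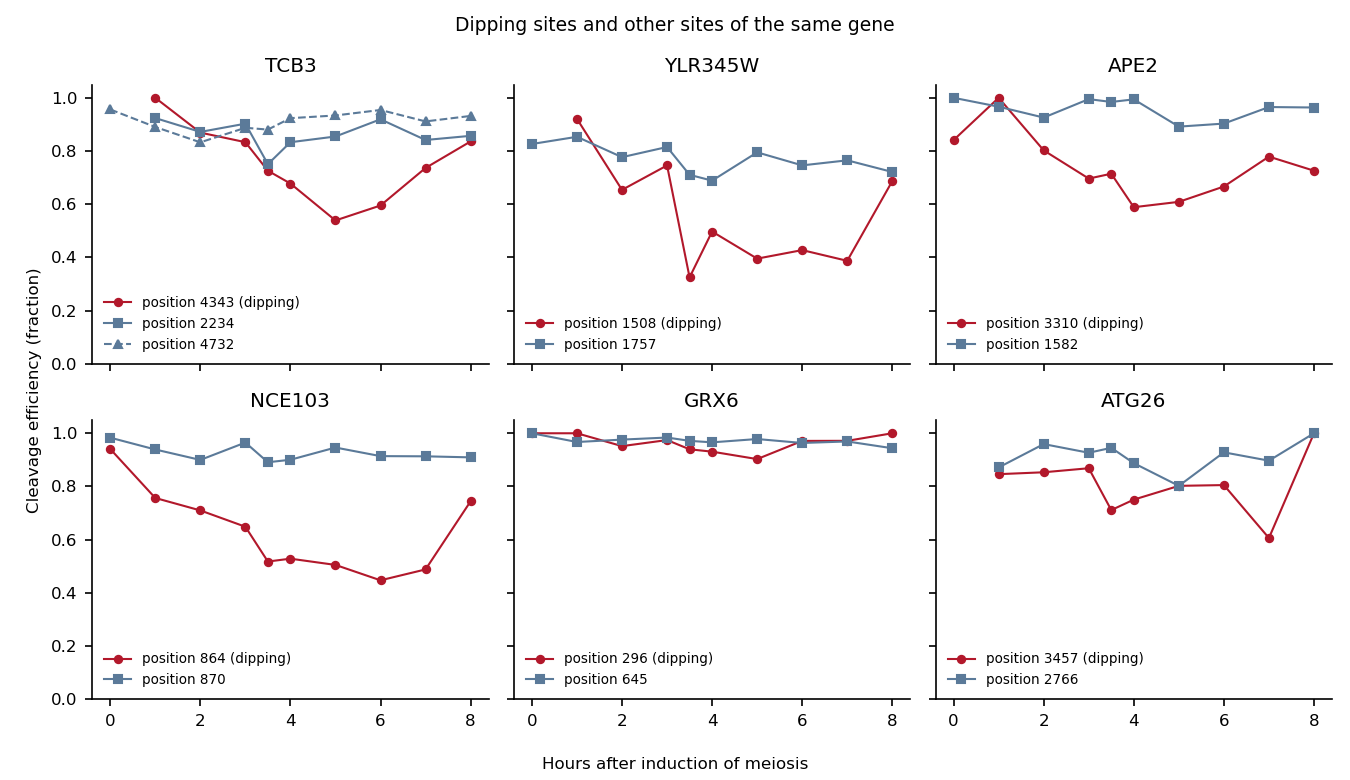
Cleavage efficiency (fraction, y axis) against hours after induction of meiosis (x axis) at the dipping site and at the other sites with all 7 values in the 6 genes that have them; 1 point is 1 library. In NCE103 the site at 864 lies under the site at 870 in every library, although they are 6 bases apart.

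Some values carry little information, and these were unevenly spread over the hours. At the dipping sites the value was exactly 1 in 13 and 6 of 73 at 1 and 2 h, in 2, 2 and 0 at 3.5, 4 and 5 h, and in 6 and 12 at 7 and 8 h. At the 322 other sites it was exactly 1 in 42 and 25 at 1 and 2 h, in 10, 14 and 16 at 3.5, 4 and 5 h, and in 20 and 37 at 7 and 8 h. The early and late libraries with more such values were also those with fewer sites measured, and the part of this in the dip was not tested. Of the 73 dipping sites 50 held no value of exactly 1 in the 7 libraries, and these were 17.5% of the 285 sites without one. A value shared to all digits with another site of the same library occurred at 66 of the 73 dipping sites (90.4%) and 274 of the 322 others (85.1%), and 7 of the 55 sites with no such value dipped. Depth behind such values is unknown.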

How the data were processed

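PolyA RNA of a meiotic time course was cut with MazF (so named in the column headers) and sequenced, 1 library per hour. The deposited table gives a cleavage efficiency per site, a fraction that the authors computed. STAR 2.5.3a and bedtools 2.26.0 were used, per the submitters' processing notes. How cut and uncut reads were told apart, the coverage, why values are missing and the build are not given in the sources that were used, so depth and precision per value are unknown. The hour in a column's name tied it to its sample. Another 4 columns match no label and were not used, so the planned comparison of the ime4 deletion with wild type was not made.

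From 1198 deposited rows, 14 that repeat a position were dropped, which left 1184 sites. R64 served for gene names and lengths only: an ACA starts at 24 of the 1184 listed positions in R64, and no sequence was therefore read. Windows were 1 and 2 h (early), 3.5, 4 and 5 h (middle) and 7 and 8 h (late). The 0, 3 and 6 h libraries were tested with limma 3.58.1 in R 4.3.3 on the unscaled fraction, with a trend in the prior variance and 6 windows, over sites with values at the hours compared and in at least 8 libraries. P-values were adjusted by Benjamini-Hochberg over all sites tested, with a threshold of 0.05. The fit was tested on simulated data. Alternatives covered the size and windows of the dip, shifting libraries to 1 median, a logit scale held within 0.01 to 0.99, the prior variance without a trend, filters on low and missing values, and leaving out each library. Every dipping site could be named. The 12 deepest, the list members, those nearest the threshold on each side (1 is not reported here), other sites of the same genes and those passing a test were given values, and further sites were chosen to describe their role group. The dipping sites, the 21 gene lists and the role groups were chosen with earlier results of these data known.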

Additional observations from a re-analysis of the deposited data

How the results depend on the processing

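No paired analysis was possible because replicate numbers are shared only by the control samples, and no column could be tied to these. Against 73 dipping sites, 22 were found with a difference of at least 0.1, 32 when the windows must not overlap (26 of them among the 73) and, an alternative chosen after seeing the data, 7 among 55 sites with no shared value. Leaving out 1 of the 7 libraries gave 57 (without 8 h, 46 of them among the 73) to 95 (without 7 h, 64 among the 73). Shifting all libraries to 1 median left 53, all among the 73, and adding 6 h or 3 h to the middle window gave 81 or 60, of which 63 and 52 were among the 73. Against 11 sites that differed between 3 and 6 h and 0 h, the logit scale gave 25, a mean of at least 0.1 gave 5, complete sites only gave 1, and the 0, 3 and 6 h libraries alone gave 0 (limma, 1 residual degree of freedom, 29 at an unadjusted p under 0.05). Leaving out 1 library gave 0 (without 6 h, 30 at an unadjusted p under 0.05) to 13 (without 8 h), with 6 when 1 h or 2 h was left out, and 2, 3 and 4 when 3.5, 4 and 5 h were. After the shift to 1 median the calls were 8 lower and 5 higher, against 10 and 1. The logit scale, the prior variance without a trend and a mean of at least 0.1 each gave 0 higher. The median difference over the 30 dipping sites, -0.174, ranged from -0.163 without 3 h to -0.140 without 6 h and was -0.116 after the shift. Between 6 h and 3 h limma called 0 sites in every alternative. The cause of these changes was not tested, apart from the smaller number of sites or libraries that some alternatives leave. With 1 library per hour and unknown depth, differences near 0.04 at single sites cannot be told apart from the scatter. The limit reaches past the threshold, since the smaller difference had a median of 0.0763 over the 73 sites and the pooled SD one of 0.0709.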
